A study of Homo sapiens with 18 samples.

Results

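The genes examined here were 30 members of the pathways that make cholesterol and fatty acids. These genes were taken by name, by a rule that used no measured value, though with earlier results of these data known. They were 7 enzymes of the mevalonate pathway, 11 enzymes of the sterol branch, 4 genes of the SREBP regulatory system, 1 sterol transport gene and 7 genes of fatty acid synthesis and desaturation, among 19401 genes listed in any of the 3 deposited tables. RNA had been sequenced from MCF10A, an immortalized, non-tumorigenic human mammary epithelial line, in 18 libraries of 5 groups. CBFB KO cells were set against their own WT with 3 libraries in each group, and RUNX1 KO1 and RUNX1 KO2 were each set against the same 4 WT libraries with 4 libraries per clone. CBFB is the partner subunit, without DNA binding of its own, of the RUNX family of transcription factors. The knockouts were made with CRISPR-Cas9 and grown from single-cell colonies, so CBFB KO is 1 clone, KO1 and KO2 are 1 RUNX1 clone each, and the effect of a knockout and that of its clone cannot be told apart. All groups were the same line, grown without treatment in medium holding horse serum, insulin, EGF, hydrocortisone and cholera toxin. The labels call the libraries of a group repeats and do not say that they came from separate cultures, so the p-values may measure technical spread.

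Cells build cholesterol from acetyl-CoA through the mevalonate pathway, which makes the isoprenoid farnesyl diphosphate, and through the sterol branch, which turns it into squalene, lanosterol and then cholesterol. Fatty acid synthesis starts from the same acetyl-CoA and ends with elongases and desaturases that set chain length and double bonds. The SREBP transcription factors switch on both pathways when membranes are short of sterol, and are held in the endoplasmic reticulum by SCAP and the INSIG proteins when sterol is plentiful. In dividing epithelial cells the pathways supply membrane lipid.

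The promoters of 4 members are shown because HMGCS1, FADS1 and SCD carried the results described below and SREBF2 was the 1 member whose promoter held the sterol element searched for. Each is the RefSeq sequence on GRCh38.p14, from 250 bases before to 50 bases after a start site, 5′ to 3′ on the gene's strand. HMGCS1 is on the minus strand at chr5:43313363-43313662, SCD on the plus strand at chr10:100346983-100347282, FADS1 on the minus strand at chr11:61816954-61817253 and SREBF2 on the plus strand at chr22:41832855-41833154. Capitals mark the motifs found on either strand, which are CCAAT or its complement ATTGG (the letters bound by NF-Y), TCACNCCAC (a core of the sterol regulatory element), and TGTGGT and TGCGGT (letters bound by RUNX factors). None of these motifs overlapped another in the windows shown.
HMGCS1: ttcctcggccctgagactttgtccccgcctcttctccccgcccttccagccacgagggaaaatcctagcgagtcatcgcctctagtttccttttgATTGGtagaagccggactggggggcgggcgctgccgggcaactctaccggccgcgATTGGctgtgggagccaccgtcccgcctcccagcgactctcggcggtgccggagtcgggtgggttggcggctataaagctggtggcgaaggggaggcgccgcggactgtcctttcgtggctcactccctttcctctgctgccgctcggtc
SCD: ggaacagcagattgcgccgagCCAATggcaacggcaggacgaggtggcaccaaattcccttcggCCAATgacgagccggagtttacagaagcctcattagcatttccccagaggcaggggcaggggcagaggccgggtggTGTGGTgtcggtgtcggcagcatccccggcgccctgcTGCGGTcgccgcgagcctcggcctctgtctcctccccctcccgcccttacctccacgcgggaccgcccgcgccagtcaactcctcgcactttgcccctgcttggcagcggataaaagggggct
FADS1: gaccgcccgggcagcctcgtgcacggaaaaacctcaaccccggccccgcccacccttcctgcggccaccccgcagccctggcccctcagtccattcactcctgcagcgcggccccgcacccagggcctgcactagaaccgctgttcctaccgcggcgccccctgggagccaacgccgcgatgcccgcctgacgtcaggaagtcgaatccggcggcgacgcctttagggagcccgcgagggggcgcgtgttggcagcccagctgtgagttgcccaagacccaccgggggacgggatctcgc
SREBF2: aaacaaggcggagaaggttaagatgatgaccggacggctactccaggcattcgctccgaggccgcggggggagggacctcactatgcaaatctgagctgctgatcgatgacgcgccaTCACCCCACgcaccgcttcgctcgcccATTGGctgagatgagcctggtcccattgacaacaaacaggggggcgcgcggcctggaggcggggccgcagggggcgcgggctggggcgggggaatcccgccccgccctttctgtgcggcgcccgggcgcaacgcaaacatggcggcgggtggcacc

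The HMGCS1 window shown held ATTGG at 155 and 100 bases before the start, and a window at another RefSeq start of HMGCS1 (chr5:43313132-43313431, not shown) held none of the motifs. SCD held CCAAT at 229 and 186 bases, TGTGGT at 110 bases and TGCGGT at 73 bases before the start, and was the 1 member with both RUNX letter sets. SREBF2 held TCACCCCAC at 133 bases and ATTGG at 106 bases before the start. The FADS1 window held none of these letters. Among the members, 35 promoters of 26 genes were at hand. ACAT2, FDFT1, SQLE and FASN were not searched. CCAAT was in 24 of the 35 windows (68.6%), against 34.6% of all 35116 promoters of this length. By gene, 20 of the 26 had it in at least 1 window, against 39.7% of 27305 genes. TGTGGT was in 5 of the 35 (14.3%, in IDI1, LSS, MVD, SCAP and SCD) against 13.1% of all, and TGCGGT in 3 (8.57%, in ELOVL6, SC5D and SCD) against 7.29%. The E-box CACGTG was in 5 windows (14.3%) against 7.26%, and TCACNCCAC in 1 (2.86%) against 1.13%. These are descriptions of letters, and no binding was measured here.

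The authors' deposited tables give, for each gene, the mean normalized count over the libraries compared, a log2 fold change, the standard error (SE) of that change and a p-value adjusted over genes, and no value per library. Levels in WT and knockout are therefore those implied by the mean and the fold change, with equal numbers of libraries in both groups, and they carry no SD. "Rose" and "fell" are used for genes with a Benjamini-Hochberg adjusted p under 0.05 in the deposited two-sided Wald test, and intervals are 95% intervals from the SE. The means of the CBFB KO, KO1 and KO2 tables summed to 20214423, 18050386 and 16467400 normalized counts per library. For genes whose mean reached 100, the median SE was 0.12, 0.10 and 0.21, so KO2 was measured least precisely. CBFB mRNA fell by 4.88 on the log2 scale in CBFB KO (Wald adjusted p = 1.39e-252). RUNX1 mRNA rose in KO1 (0.54) and KO2 (0.46), so it does not check the labels of the clones, and every RUNX1 direction given here is that of a library labelled KO1 or KO2. In bulk RNA, fewer cells of a type and less RNA per cell cannot be told apart.

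All 30 members were listed and tested for CBFB KO and KO1, and 28 for KO2, where PMVK and MVD were not listed. They were strongly expressed genes, making up 0.670%, 0.633% and 0.654% of the summed means. Per kb of the longest annotated transcript, the implied WT levels in the CBFB table ran from 5239 normalized counts for FDPS down to 29.5 for TM7SF2. FDPS makes farnesyl diphosphate, from which sterols and prenyl groups derive. SCD (stearoyl-CoA desaturase) followed at 3373 normalized counts per kb, then FDFT1 (squalene synthase) at 3256, FASN (fatty acid synthase) at 2361 and SQLE (squalene epoxidase) at 2293. The lowest members after TM7SF2 were FADS2 at 56.2 and STARD4 at 123.5 normalized counts per kb. The order at the ends was alike in the WT of the RUNX1 experiment, where the KO1 table put FDPS at 6674, FDFT1 at 3263 and SCD at 2467, and FADS2 at 38.9. TM7SF2 stood higher there, at 55.6 normalized counts per kb. FDPS has 10 annotated pseudogenes, IDI1 and CYP51A1 have 3 each, HSD17B7 has 2 and SCD has 1, so reads of these genes may have been shared with their copies.

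**Figure D1:**
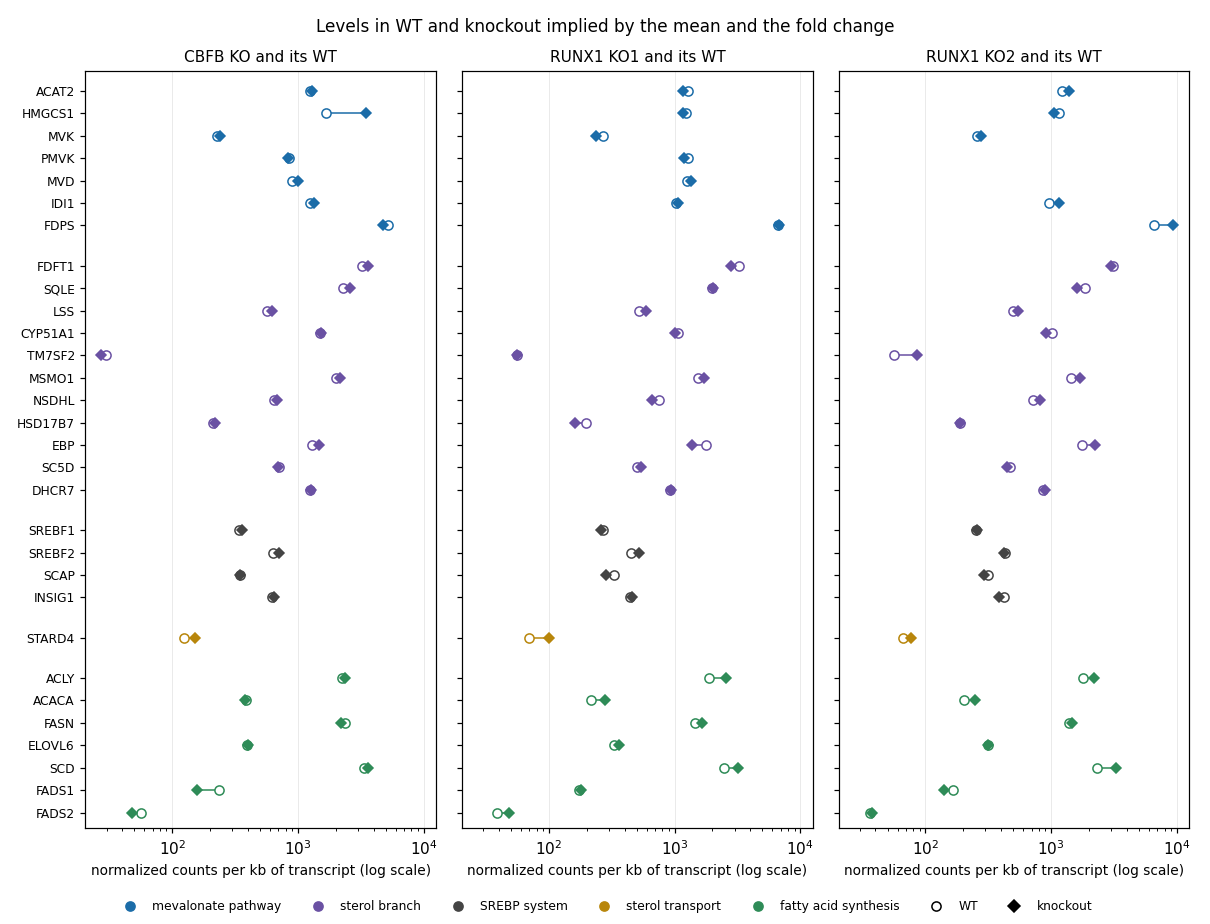
Implied level of each member in WT (open circle) and knockout (diamond), in normalized counts per kb of transcript on a log axis, in the CBFB KO, RUNX1 KO1 and RUNX1 KO2 tables, coloured by role. Levels in the CBFB table spread from 29.5 (TM7SF2) to 5239 (FDPS) in WT, and the shift of HMGCS1 in CBFB KO, from 1671 to 3501, is the largest fold between a WT and its knockout.

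The first comparison asked how the loss of CBFB changed these genes. In CBFB KO, HMGCS1 rose 2.10-fold and FADS1 fell to 0.671 of WT, and the other 28 members were not past the threshold. The count of 2 of 30 members called (6.67%) stood against 19.7% of the 14975 genes tested. By direction, 1 member rose against 11.7% of all genes, and 1 fell against 7.97%. HMGCS1 also had a fold change of at least 2, which with the adjusted p was past for 2.98% of all genes. Restricted to a mean of 100 or more, which 29 of the members reached, 22.7% of genes were called. The median log2 fold change of the members was 0.07, beside -0.01 over all genes tested, and the median of the absolute values was 0.10 beside 0.18. Intervals lay within 1.5-fold of WT in either direction for 25 of the 30 members and within 2-fold for 29. An unadjusted Wald p under 0.05 was reached by 4 members, the 2 called with SQLE and STARD4.

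HMGCS1 encodes the cytosolic HMG-CoA synthase that commits acetyl-CoA to the mevalonate pathway. Its implied level went from 5858 normalized counts in WT to 12275 in CBFB KO, a log2 fold change of 1.07 (SE 0.14, Wald adjusted p = 2.05e-12). The other 6 mevalonate enzymes had values between -0.14 and 0.18 and none was past the threshold. MVD, the decarboxylase that makes isopentenyl diphosphate, had 0.18 (SE 0.13), IDI1, which isomerizes that product, had 0.10 (SE 0.10), and FDPS had -0.14 (SE 0.14). HMGCS1 was the 1 enzyme of its pathway past the threshold.

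HMGCS1 lies on the short arm of chromosome 5, and the genes around it moved with it in CBFB KO. Of its 20 nearest neighbours with a mean of at least 100, 10 on each side, 18 rose and 0 fell, with a median log2 fold change of 0.74 (1.67-fold), and 2 of them, CARD6 (1.16) and GHR (1.20), had values above that of HMGCS1. The nearest on either side, ZNF131 (0.76, SE 0.10) and CCL28 (1.05, SE 0.19), both rose. The raised values reached from the start of the chromosome to MRPS30, where 77 of 87 genes rose and 1 fell with a median of 0.76, and 12 of them were above HMGCS1. Past MRPS30 the 451 expressed genes had a median of -0.01, with 77 risen and 55 fallen. These genes were named for their position, and MRPS30 was taken as the edge after the values were seen. In each RUNX1 table the 20 nearest genes that reached a mean of 100 there, not all of them the same as in the CBFB table, had medians of 0.04 (KO1) and -0.12 (KO2), and HMGCS1 had log2 fold changes of -0.07 (SE 0.06) and -0.15 (SE 0.18). Measured against its neighbours' median, HMGCS1 was higher in CBFB KO by 0.32 and was no longer called (two-sided normal test over its own SE, adjusted p = 0.0895). That test has no term for the spread of the neighbours' median. The medians of the neighbours of the other 29 members in CBFB KO ran from -0.14 to 0.14, and those of STARD4, the other member on chromosome 5, had a median of -0.01. How much of the HMGCS1 value belongs to the chromosome around it was not tested.

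**Figure D2:**
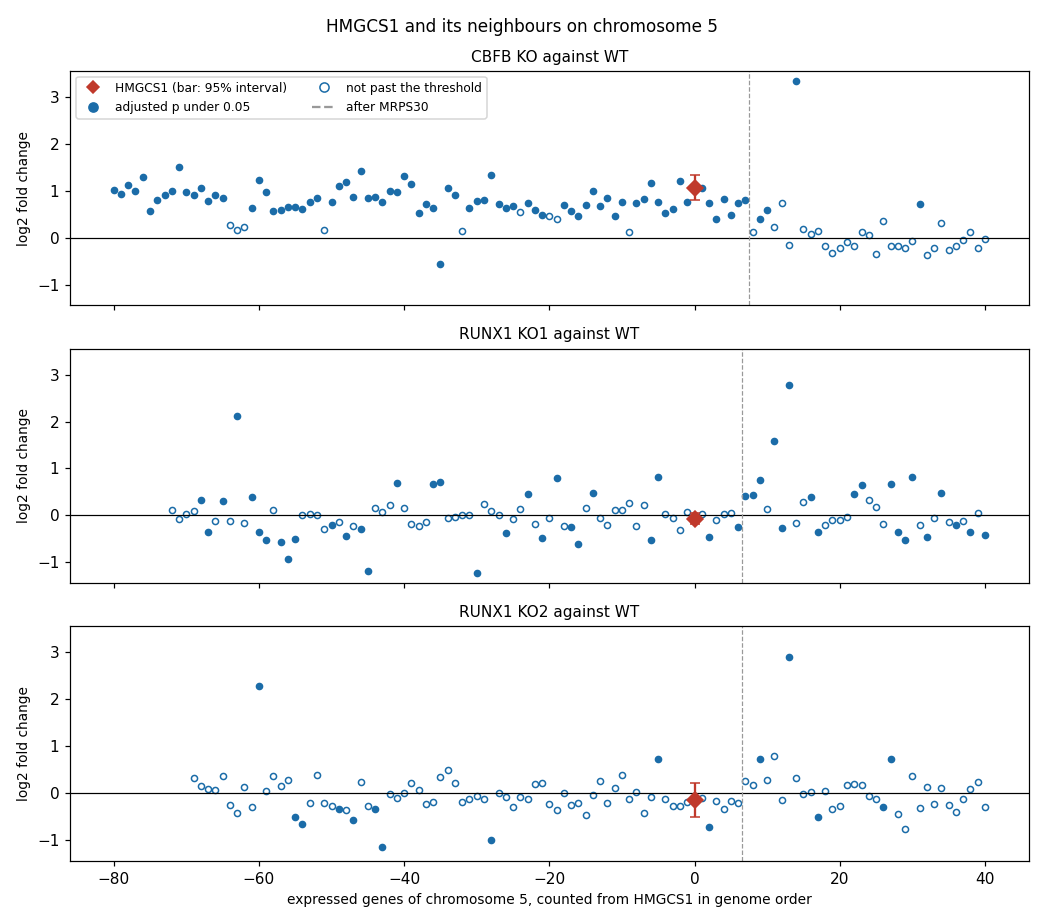
Log2 fold change (knockout over WT) of expressed genes of chromosome 5 (circles, filled where the adjusted p was under 0.05) by their place in gene order counted from HMGCS1 (red diamond with 95% interval), for the CBFB KO, RUNX1 KO1 and RUNX1 KO2 tables. The dashed line follows MRPS30. In CBFB KO the genes before the line sit around 0.76 and those after it around 0, while in both RUNX1 clones the genes on either side of the line spread around 0.

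The sterol branch did not change detectably in CBFB KO. All 11 enzymes were below the threshold, with log2 fold changes from -0.11 to 0.18 and a median of 0.07, and 1 had an unadjusted Wald p under 0.05. That was SQLE, which adds the oxygen that precedes sterol ring closure, at 0.17 (SE 0.08, unadjusted p = 0.0276, Wald adjusted p = 0.107). EBP, a sterol isomerase, had 0.18 (SE 0.11). The enzymes on the way from lanosterol, CYP51A1 at 0.00 (SE 0.09) and SC5D at -0.02 (SE 0.09), were measured closely enough that their intervals ran from -0.18 to 0.19 and from -0.20 to 0.17. TM7SF2, a sterol reductase and the lowest member, had the widest interval of the branch, from -0.65 to 0.43.

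The regulators among the members were also not past the threshold in CBFB KO. SREBF2, the factor tied most to sterol genes, had a log2 fold change of 0.15 (SE 0.10) and SREBF1, tied more to fatty acid genes, had 0.09 (SE 0.27). The escort protein gene SCAP had 0.00 (SE 0.09) and INSIG1, which retains it, had 0.06 (SE 0.12). STARD4, a carrier that moves cholesterol between membranes, had 0.30 (SE 0.13, unadjusted p = 0.0269, Wald adjusted p = 0.106), and was called (0.41, adjusted p = 0.0159) once fold changes had been freed of their trend on transcript length and GC.

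In fatty acid synthesis FADS1, the desaturase that makes arachidonic acid, fell in CBFB KO from an implied 1065 to 715 normalized counts, by 0.58 on the log2 scale (SE 0.11, Wald adjusted p = 7.06e-06). Its neighbour in the genome and in the pathway, FADS2, had -0.24 (SE 0.15, adjusted p = 0.264 by the same test). The other 5 genes lay between -0.11 and 0.09, and the summed implied level of the 7 was 0.997 of WT. SCD had 0.09 with an SE of 0.28, so its interval from 0.727-fold to 1.57-fold covers the sizes seen in the RUNX1 clones.

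**Figure D3:**
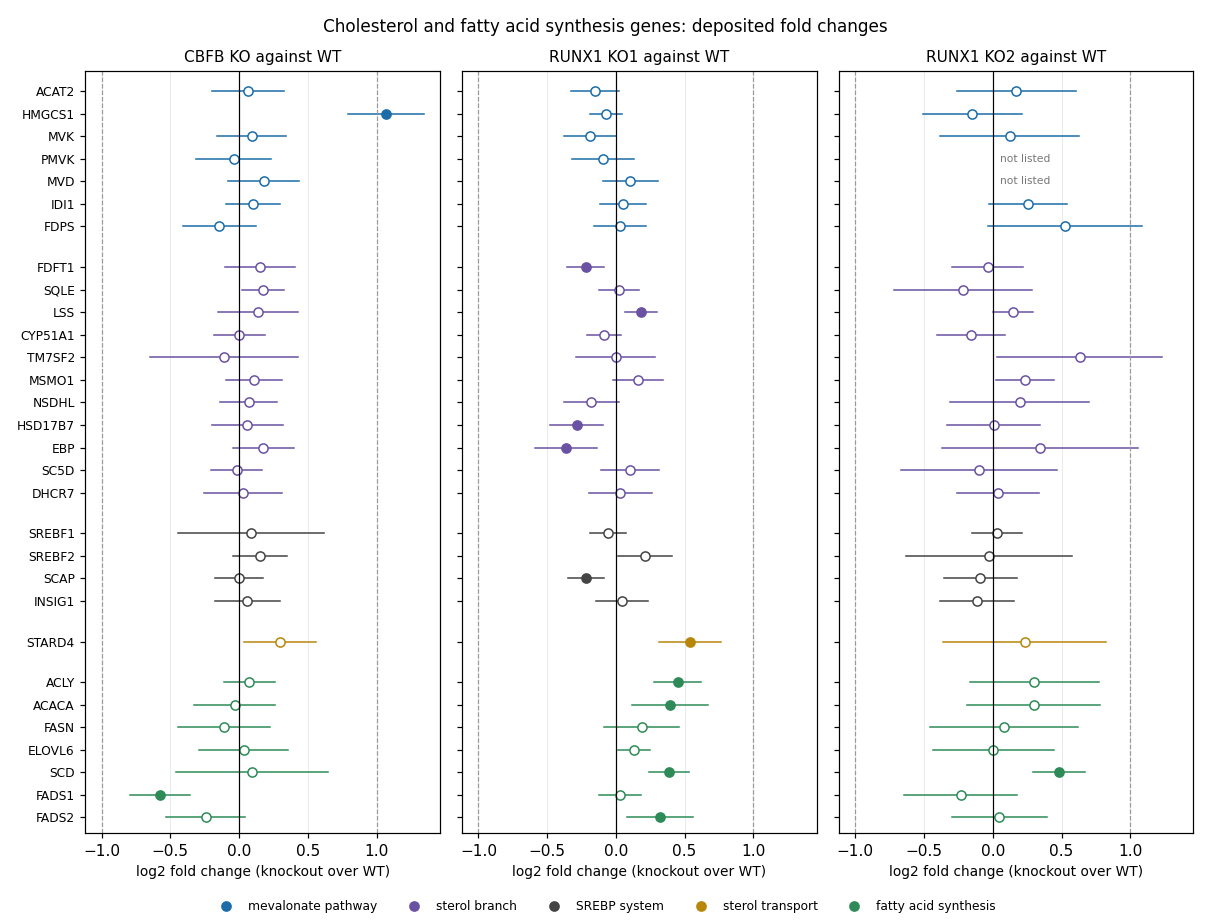
Deposited log2 fold change (knockout over WT) of each member with its 95% interval in the CBFB KO, RUNX1 KO1 and RUNX1 KO2 tables, coloured by role. Filled points have an adjusted p under 0.05 and dashed lines mark a 2-fold change. HMGCS1 in CBFB KO (1.07) is the 1 filled point past a dashed line, and the intervals in KO2 are wider than in KO1.

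The second comparison asked how the loss of RUNX1 changed the same genes. In KO1, 6 members rose and 4 fell, and all 10 changes were smaller than 1.5-fold. STARD4, ACLY, SCD, ACACA, FADS2 and LSS rose, and EBP, HSD17B7, FDFT1 and SCAP fell. The 10 of 30 called (33.3%) stood against 39.5% of the 16394 genes tested, with 6 risen against 19.7% and 4 fallen against 19.9%. Restricted to a mean of 100 or more, which all 30 members reached, 48.9% of genes were called. A fold change of at least 2 with the adjusted p was reached by 0 members and by 4.93% of all genes, and 13 members had an unadjusted Wald p under 0.05. The median log2 fold change of the members was 0.03 beside -0.00 over all genes, and the absolute median was 0.16 beside 0.25. Intervals lay within 1.5-fold for 26 of the 30.

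The fatty acid genes were the group of members with the most risen in KO1. All 7 had values above 0, 4 of them were called, and their median log2 fold change was 0.32. In KO1, 19.7% of all genes tested rose, and 48.9% of those with a mean of at least 100 were called in either direction. With 7 genes the count says little about the group. ACLY, which cuts citrate into cytosolic acetyl-CoA, went from an implied 8119 to 11085 normalized counts (0.45, SE 0.09, Wald adjusted p = 1.99e-06). SCD, which puts the first double bond into saturated fatty acids, went from 13229 to 17287 (0.39, SE 0.07, Wald adjusted p = 1.25e-06). ACACA, the acetyl-CoA carboxylase that makes malonyl-CoA, rose by 0.39 (SE 0.14) and FADS2 by 0.32 (SE 0.12). Those not called were FASN (0.19, SE 0.14), ELOVL6 (0.13, SE 0.06), an elongase of saturated chains, and FADS1 (0.03, SE 0.08). The implied levels of the 7 summed to 39082 normalized counts in WT and 48771 in KO1, a ratio of 1.25. With the trend on transcript length and GC content removed, ACLY (0.41) and SCD (0.32) were still called, ACACA (0.17) and FADS2 (0.22) were not, and FASN (-0.09) and FADS1 (-0.01) went below 0.

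In the mevalonate pathway 0 of 7 enzymes passed the threshold in KO1, against 39.5% of all genes tested. Their values ran from -0.19 for MVK (mevalonate kinase) to 0.10 for MVD. MVK was the 1 enzyme with an unadjusted Wald p under 0.05 (0.0492), and it was called with the trend on transcript length and GC content removed (-0.24, adjusted p = 0.0348) and when centred on its neighbours (-0.31, adjusted p = 0.00462). All 7 intervals lay within 1.5-fold of WT. FDPS, the highest member per kb, had 0.03 (SE 0.10) and HMGCS1 had -0.07 (SE 0.06, interval from -0.19 to 0.04).

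The sterol branch moved both ways in KO1, with 1 enzyme risen, 3 fallen and a median of -0.00. The share called was 36.4%, beside 39.5% of all genes tested. FDFT1, at the entry to the branch, went from an implied 8680 to 7447 normalized counts and fell by 0.22 on the log2 scale (SE 0.07, Wald adjusted p = 0.00565). HSD17B7, a sterol ketone reductase, fell by 0.29 (SE 0.10) and EBP by 0.37 (SE 0.12). LSS, which closes the rings to give lanosterol, rose by 0.18 (SE 0.06, Wald adjusted p = 0.00589). Each of these 4 calls was lost when the trend on transcript length and GC content was removed, with values of -0.14, -0.22, -0.22 and 0.09 in the order given. The 7 enzymes not called ran from -0.18 for NSDHL to 0.16 for MSMO1, both of which act in removing methyl groups from lanosterol.

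Among the regulators SCAP fell in KO1, from an implied 1455 to 1253 normalized counts (-0.22, SE 0.07, Wald adjusted p = 0.00428). SREBF2 had 0.21 (SE 0.10, unadjusted p = 0.0352, Wald adjusted p = 0.0816), SREBF1 had -0.06 (SE 0.07) and INSIG1 had 0.04 (SE 0.10). STARD4 gave the highest value of any member in KO1, from an implied 319 to 463 normalized counts (0.54, SE 0.11, Wald adjusted p = 2.09e-05).

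In KO2, SCD rose and the other 27 members listed were not past the threshold. The 1 of 28 called (3.57%) stood against 14.8% of the 15636 genes tested, with 8.76% of all genes risen and 6.08% fallen. At a mean of at least 100, 15.1% of all genes were called, and 5.48% of all tested genes had a fold change of at least 2 with the adjusted p, as had 0 members. SCD went from an implied 12490 to 17420 normalized counts (0.48, SE 0.10, Wald adjusted p = 1.27e-05). Besides SCD, 3 members had an unadjusted Wald p under 0.05. The median log2 fold change of the 28 was 0.06 beside 0.02 over all genes, and the absolute median was 0.15 beside 0.24. Intervals lay within 1.5-fold for 13 of the 28 and within 2-fold for 25, so smaller changes were often not detectable at this precision.

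Among the members not called in KO2, the values of FDPS and TM7SF2 were the highest and had wide errors. FDPS went from an implied 13148 to 18929 normalized counts with a log2 fold change of 0.53 (SE 0.29, Wald adjusted p = 0.251), and its interval ran from 0.976-fold to 2.12-fold. TM7SF2 had 0.63 (SE 0.31, unadjusted p = 0.0391). MSMO1 had 0.23 (SE 0.11, unadjusted p = 0.0296) and LSS had 0.15 (SE 0.07, unadjusted p = 0.0467), and like TM7SF2 they were not past the adjusted threshold. The regulators among the members were near WT, with SREBF1 at 0.03 (SE 0.09), SREBF2 at -0.03 (SE 0.31), SCAP at -0.09 (SE 0.14) and INSIG1 at -0.11 (SE 0.14). In fatty acid synthesis ACLY had 0.30 (SE 0.24), ACACA 0.30 (SE 0.25), FASN 0.08 (SE 0.27) and FADS1 -0.23 (SE 0.21).

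The clones are set side by side without a test because they share their WT. SCD had fold changes of 1.31 in KO1 and 1.39 in KO2 and was the 1 member called in more than 1 table. ACLY had 1.37 and 1.23, ACACA 1.31 and 1.23, STARD4 1.45 and 1.17, and LSS 1.14 and 1.11, and in KO2 none of these 4 was called. EBP had 0.776 in KO1 and 1.27 in KO2, where its SE was 0.36. The 2 RUNX1 tables were normalized separately, and the WT levels implied for the same libraries were mostly lower in the KO2 table, such as 12490 against 13229 for SCD.

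The third comparison asked whether the members responded differently to the loss of CBFB and of RUNX1, which were measured in experiments with no shared library. Against KO1, 5 of 30 members differed when the difference was set over its combined SE in a two-sided normal test, Benjamini-Hochberg adjusted over all genes tested in both tables, where 9.84% of 14940 genes did. HMGCS1 was higher in its CBFB KO response by 1.14 on the log2 scale (SE 0.15, adjusted p = 2.58e-11) and EBP by 0.54 (SE 0.16, adjusted p = 0.0153). FADS1 differed by -0.61 (SE 0.14, adjusted p = 6.12e-04), FADS2 by -0.56 (SE 0.19, adjusted p = 0.0383) and ACLY by -0.37 (SE 0.13, adjusted p = 0.0422), each lower in CBFB KO. Set against their neighbours in each table, the difference of HMGCS1 was 0.44 (adjusted p = 0.0474) and that of EBP 0.37 (adjusted p = 0.131). These p-values have no term for the spread of the neighbours' medians. Without the trend on transcript length and GC content, HMGCS1 and FADS1 were the 2 members that still differed.

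Against KO2, 1 of 28 members differed, where 2.9% of 14503 genes did. HMGCS1 differed by 1.22 (SE 0.23, adjusted p = 2.32e-05), and by 0.36 (adjusted p = 0.748) when set against its neighbours. FADS1 differed by -0.34 with an interval from -0.81 to 0.12, and SCD by -0.39 with an interval from -0.97 to 0.20, so neither a like response nor one differing by more than 1.5-fold was excluded by these intervals.

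**Figure D4:**
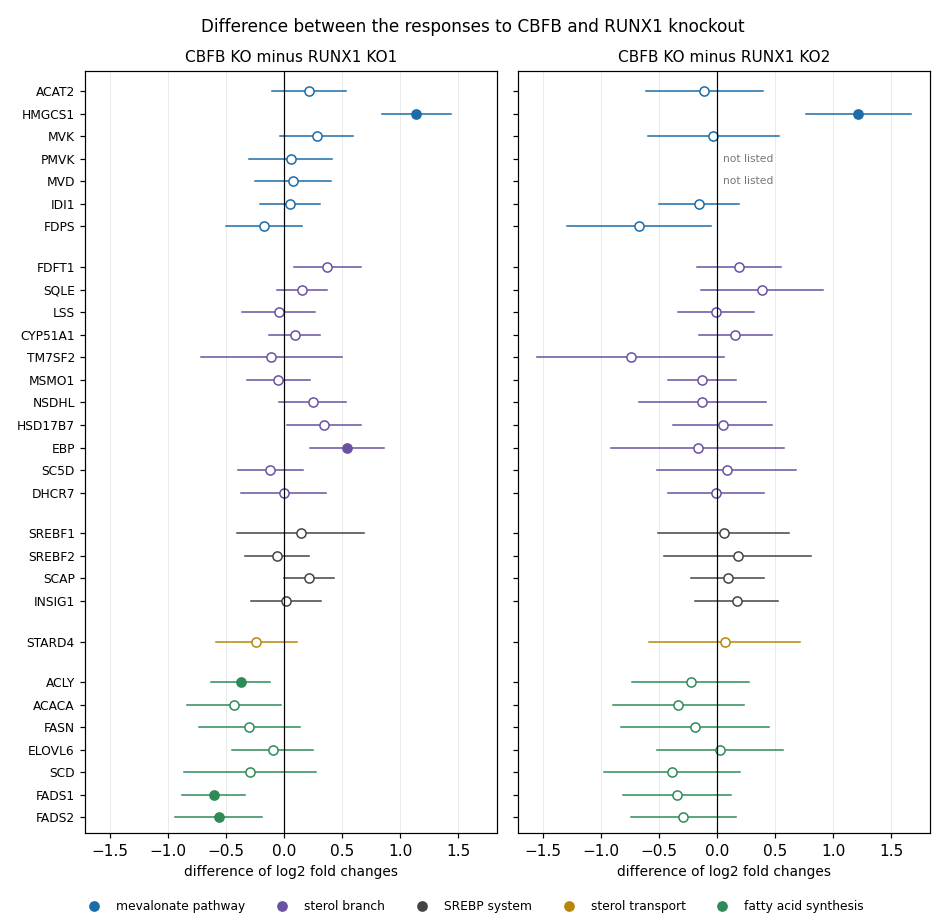
Difference of log2 fold changes (CBFB KO minus RUNX1 KO1, left, and minus RUNX1 KO2, right) for each member with its 95% interval, coloured by role and filled where the adjusted p of the difference was under 0.05. HMGCS1 stands at 1.14 and 1.22, and the fatty acid genes lie below 0 on the left, from -0.61 to -0.10.

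Genes of the same pathways outside the members were read from fixed lists. In sterol handling, which covers processing of SREBP and movement of sterol inside cells, 2 of 15 rose and 2 fell in CBFB KO, 7 rose and 4 fell in KO1, and 0 rose and 1 fell in KO2. All 15 had a mean of at least 100, where 22.7%, 48.9% and 15.1% of all genes were called in the CBFB KO, KO1 and KO2 tables. NPC1 and NPC2 hand cholesterol out of lysosomes. NPC1 rose by 0.43 (SE 0.12) in CBFB KO and 0.59 (SE 0.10) in KO1, with 0.40 (SE 0.17, Wald adjusted p = 0.114) in KO2. NPC2 fell by 0.44 (SE 0.17) and 0.86 (SE 0.10) in CBFB KO and KO1, with -0.30 (SE 0.31) in KO2. FDX1, a mitochondrial electron carrier, fell by 0.48 (SE 0.13) and 0.55 (SE 0.11) in the first tables and had -0.06 (SE 0.25) in KO2, and ERLIN1, an endoplasmic reticulum protein, fell in KO1 by 0.25 (SE 0.06) and in KO2 by 0.43 (SE 0.11). The paired lysosomal genes thus moved in opposite directions in CBFB KO and in KO1.

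LXR receptors switch on genes that export cholesterol when it is plentiful. Of the 6 receptor and target genes tested, 2 rose after CBFB loss, 3 in clone KO1 and 1 in clone KO2, and 0 fell in any table. Of all genes tested, 11.7%, 19.7% and 8.76% rose and 7.97%, 19.9% and 6.08% fell in these tables, and with 6 genes the counts say little about the list. ABCG1, a sterol exporter, rose in all 3 tables, by 0.90 (SE 0.29), 2.38 (SE 0.27) and 2.46 (SE 0.31), at low means of 24.2, 29.1 and 23.3 normalized counts. MYLIP, which marks lipoprotein receptors for degradation, rose in KO1 by 0.56 (SE 0.22, Wald adjusted p = 0.0357), and SMPDL3A by 0.48 (SE 0.17). NR1H2, the LXR beta gene, rose in CBFB KO by 0.41 (SE 0.09). ABCA1, the other main exporter, had means of 1.02, 0.734 and 0.441 and was not tested.

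In the list of other fatty acid and glycerolipid synthesis genes, 5 of 21 rose and 5 fell in CBFB KO, 7 of 22 rose and 6 fell in KO1, and 3 of 22 rose and 0 fell in KO2, where 19.7%, 39.5% and 14.8% of all genes were called in the respective tables. FADS3, beside FADS1 and FADS2 in the genome, rose in all 3 tables, by 1.09 (SE 0.18), 1.30 (SE 0.07) and 1.47 (SE 0.23), whereas FADS1 fell in CBFB KO and was not called in the clones. DGAT2, which makes triglyceride, rose by 0.50 (SE 0.16), 0.59 (SE 0.11) and 0.67 (SE 0.22), and ELOVL1, an elongase of very long chains, by 0.47 (SE 0.14), 0.27 (SE 0.08) and 0.42 (SE 0.14). LPIN1, a phosphatidate phosphatase, fell by 0.74 (SE 0.21) in CBFB KO and 0.49 (SE 0.12) in KO1, and had -0.25 (SE 0.20) in KO2. In fatty acid oxidation 0 of 10 genes were called in CBFB KO by the adjusted Wald test (2 had an unadjusted p under 0.05), 3 rose and 2 fell in KO1, and 2 rose in KO2, beside the same shares of all genes. ACADVL, which starts the oxidation of long chains, rose by 0.50 (SE 0.08) in KO1 and 0.60 (SE 0.21) in KO2. ETFDH, which passes electrons from oxidation to the respiratory chain, fell in KO1 by 0.28 (SE 0.10), and PPARA, a receptor for fatty acids, rose there by 0.44 (SE 0.14).

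The libraries carried the markers of their line. KRT5, the basal keratin with the highest mean of 10 epithelial markers, had means of 87894, 101688 and 95221 normalized counts, and fell by 0.27 (SE 0.10) in CBFB KO and by 0.24 (SE 0.09) in KO1, with -0.26 (SE 0.12, Wald adjusted p = 0.16) in KO2. KRT6A had -0.16 (SE 0.18) in CBFB KO, rose by 0.47 (SE 0.07) in KO1 and had 0.16 (SE 0.26) in KO2. KRT17 rose by 0.57 (SE 0.17), 0.69 (SE 0.11) and 1.27 (SE 0.33). The summed implied level of the epithelial list went from 282461 in WT to 313296 normalized counts in CBFB KO, and from 293128 to 420003 in KO1. In KO2, with 9 of them listed, it went from 281223 to 371380. Of the epithelial markers, 5 rose and 1 fell in CBFB KO, 8 rose and 1 fell in KO1, and 4 rose and 0 fell in KO2. All that were listed had a mean of at least 100. At such means 22.7%, 48.9% and 15.1% of all genes were called in the CBFB KO, KO1 and KO2 tables. Among 7 mesenchymal markers FN1 rose and SNAI2 fell in all 3 tables, CDH2 was called in none (0.25, -0.33 and -0.63), and VIM rose by 0.64 (SE 0.18) in CBFB KO and fell by 1.74 (SE 0.11) in KO1 and fell by 2.77 (SE 0.16) in KO2. Of the 7 mesenchymal markers, 2 rose and 3 fell in CBFB KO, and 1 rose and 4 fell in each of KO1 and KO2. Of all genes tested, 19.7%, 39.5% and 14.8% were called in the CBFB KO, KO1 and KO2 tables. The list's median log2 fold changes were -0.14, -0.78 and -0.92. The list's summed implied level went from 13604 to 22806 normalized counts in CBFB KO, from 3591 to 12434 in KO1 and from 3680 to 7808 in KO2. FN1 was the 1 marker risen in KO1 (3.13, SE 0.12) and in KO2 (2.21, SE 0.32), so the sums there do not give the direction of most markers. Of 10 fibroblast, endothelial and leukocyte markers, the endothelial PECAM1 and CDH5 and the T cell gene CD3E had means under 1 in every table. PDGFRA, a fibroblast gene and the highest of the list, had means of 633, 554 and 466 and log2 fold changes of -0.05, -0.07 and -0.35, none called. COL1A1 had means of 284, 305 and 236 and rose by 1.40, 1.75 and 1.36. CD68 had means of 303, 183 and 161 and rose by 0.69 in CBFB KO and 0.52 in KO1, with 0.34 in KO2, and LYZ had means of 11.7, 7.66 and 8.20 and was not called. In that list 2 of 5 genes tested rose and 1 fell in CBFB KO and in KO1, and 1 rose and 1 fell in KO2. These counts stand beside 19.7%, 39.5% and 14.8% of all genes called, and with 5 genes they say little about the list. The list's summed implied level went from 1055 to 1426 normalized counts in CBFB KO, from 877 to 1237 in KO1 and from 817 to 942 in KO2. The part of these changes in the values of the lipid genes was not tested.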

How the data were processed

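The authors' deposited tables, 1 each for CBFB KO, RUNX1 KO1 and RUNX1 KO2 against WT, hold the authors' own fitted comparisons and 0 columns of values per library. Per the labels, the authors used Trimmomatic, STAR and DESeq2 with hg19, in versions and settings not given in the sources used here. The mean of normalized counts over the libraries of a table is treated as a signal because the authors deposited only the mean. The authors' deposited log2 fold changes are relative to WT and shrunk toward 0, most where they were imprecise, as for genes with few reads or a wide SE. Implied levels in WT and knockout are drawn toward each other by this shrinkage. The deposited test score is the fold change divided by its SE. The deposited p-values are two-sided Wald p-values, adjusted by the authors after Benjamini and Hochberg, and genes without an adjusted value were not counted as tested.

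Members were matched by symbol and joined by Entrez ID. Members and lists were chosen with earlier results of these data known. All members are named, with CBFB and RUNX1, and from each other list at most 4 genes. These were the genes called in the same direction in the most tables, or for markers the highest means. Ties went to the gene whose smallest absolute change over those tables was largest, which favours large changes. Some genes that this rule picks are not reported here. Genes singled out by position or by a level near 0 were named after their values were seen. Levels were implied from mean and fold change, and per kb values used the longest GENCODE 29 transcript. Differences used a normal test over the combined SE. Fold changes altered under an alternative were retested by a two-sided normal test over the deposited SE, Benjamini-Hochberg adjusted. No term was added for the spread of the neighbours' medians. Gene order, pseudogenes and promoters came from RefSeq GRCh38.p14, which is not the authors' build, so only promoter positions are given. Calculations were made in Python 3.11.15 with numpy 2.4.6, pandas 2.3.3, scipy 1.17.1 and statsmodels 0.14.6, and tested on simulated data. Alternatives were an adjusted p under 0.01, a fold change of at least 1.5, centring on the median, removal of the trend on log transcript length and GC content, a mean of at least 100 and, chosen after seeing the data, centring on the 10 expressed neighbours on each side.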

Additional observations from a re-analysis of the deposited data

Results flagged for a closer look

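The following genes were singled out because their response in CBFB KO differed from that in KO1, in KO2 or in both. The test was a direct two-sided normal test with Benjamini-Hochberg adjustment over all genes. All are CBFB KO minus the RUNX1 clone on the log2 scale.

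HMGCS1, at the start of the mevalonate pathway, differed by 1.14 from KO1 and by 1.22 from KO2, while its neighbours on chromosome 5 were also raised in CBFB KO. Against KO1, the sterol isomerase gene EBP differed by 0.54, having fallen in KO1 and not having been called in CBFB KO. The desaturase genes FADS1 and FADS2 differed from KO1 by -0.61 and -0.56, FADS1 having fallen in CBFB KO and FADS2 having risen in KO1. ACLY, the source of cytosolic acetyl-CoA, differed from KO1 by -0.37, having risen in KO1 and not in CBFB KO. Against KO2, EBP differed by -0.17, opposite in sign to its difference from KO1. The differences from KO2 were -0.34 for FADS1, -0.29 for FADS2 and -0.23 for ACLY. None of these KO2 differences was called, EBP included. No group was large enough, and no value per library was at hand, to look for single libraries far from the rest.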

How the results depend on the processing

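With the trend on transcript length and GC content removed, members called in KO2 went from 1 to 2 (MSMO1 added, 0.40, adjusted p = 0.00249), and those differing between CBFB KO and KO1 from 5 to 2, without EBP, ACLY and FADS2. Centring on neighbouring genes, chosen after seeing the data, took the members called in CBFB KO from 2 to 1 (HMGCS1 lost), in KO2 from 1 to 2 (MSMO1 added, 0.38) and those differing between CBFB KO and KO2 from 1 to 0. In that last normal test 0 of 28 members had an unadjusted p under 0.05 either. In KO1 the count of 10 (6 risen, 4 fallen) became 7 (4 and 3) without the trend, of which 4 were kept (STARD4, ACLY, SCD and SCAP) and 3 gained (MVK -0.24, SREBF1 -0.17 and MSMO1 0.28), 11 (7 and 4) on median centring, 14 (10 and 4) on neighbour centring, of which 9 were kept, and 7 (4 and 3) at an adjusted p under 0.01. No called value reversed under the alternatives run. Of the fold changes of single members, 85 of 88 kept their direction and their side of the threshold on median centring, 64 of 88 without the trend, 71 of 88 on neighbour centring and 87 of 87 at a mean of at least 100. Causes were not tested. Median centring took off 0.00, -0.02 and -0.00 in the CBFB KO, KO1 and KO2 tables. No paired analysis was possible because the tables hold no value per library, and for the same reason leaving out single libraries could not be run. Precision was limited by 3 or 4 libraries per group. It was lowest in KO2 (median SE 0.21, against 0.10 in KO1), although both clones had 4 libraries and the same WT. The source of that difference was not tested.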
